A study of Mus musculus with 7 samples.

Results

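The consensus set of accessible regions in freshly sorted airway macrophages (AMs) held 1722 peaks that the annotation assigns to a microRNA (miRNA) gene, 1.91% of 90376 peaks. A peak was a member if the symbol of the gene to which it was assigned began with Mir and a digit, or with Mirlet7, host genes ending in hg included. The members belonged to 481 miRNA genes, among them 4 genes named *Mirlet7* with 18 peaks and 5 host genes (*Mir9-3hg*, *Mir155hg*, *Mir22hg*, *Mir99ahg* and *Mir124a-1hg*) with 20 peaks. Accessibility was measured by ATAC-seq, where Tn5 inserts adapters into DNA that is not packed away, in AMs sorted by CD45, Siglec-F and CD11c from lungs of 6-week-old female C57BL/6 mice. There were 4 libraries from *Scnn1b*-Tg mice, which carry a transgene for the β subunit of the epithelial sodium channel and develop muco-obstructive lung disease, and 3 libraries from wild-type (WT) littermates. The transgene is driven by the promoter of a club cell gene and thus belongs to the airway epithelium, not to the AMs that were sequenced. AMs of both genotypes were taken fresh. The comparison asks if regions assigned to miRNA genes are opened or closed in AMs from the diseased airway.

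A miRNA is cut from a hairpin within a longer primary transcript by Drosha and Dicer and guides an Argonaute protein to messenger RNAs, mostly by pairing of its seed, the bases after the first one at its 5′ end. Primary transcripts often begin many kilobases before the hairpin or coincide with the transcript of a protein-coding host gene. The start that the annotation gives for most miRNA genes is the start of the hairpin, so distances below are distances from the hairpin and not from the promoter of the primary transcript. In macrophages, miR-155, miR-146a and miR-147 are known as products of toll-like receptor signalling, and miR-142 and miR-223 as miRNAs of the haematopoietic lineages. Accessibility reports open DNA, and levels of the miRNAs themselves were not measured in these libraries.

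Mature sequences (RefSeq, GRCm38.p6) were found for 421 of the 481 genes and held 590 different seeds, of which 50 were shared by more than 1 gene. The sequences below are those of miRNAs at which the results turn, 5′ to 3′, with the seed (bases 2 to 8) in capitals. The first 5 share the let-7 seed, and miR-1961, whose locus held the peak with the second smallest p, is among them.
mmu-miR-1961: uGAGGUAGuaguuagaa
mmu-let-7a-5p: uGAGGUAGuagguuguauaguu
mmu-let-7b-5p: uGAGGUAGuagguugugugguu
mmu-let-7d-5p: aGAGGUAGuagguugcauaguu
mmu-let-7i-5p: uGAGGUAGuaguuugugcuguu
The next pairs share a seed within each pair: miR-6932-3p with the 3p arm of miR-26b, both forms of miR-146, miR-181b with miR-181a, and miR-221 with miR-222.
mmu-miR-6932-3p: uCUGUUCUgcuuccucugcag
mmu-miR-26b-3p: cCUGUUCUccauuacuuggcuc
mmu-miR-146a-5p: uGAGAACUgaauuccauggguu
mmu-miR-146b-5p: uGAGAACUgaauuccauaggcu
mmu-miR-181b-5p: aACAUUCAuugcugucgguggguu
mmu-miR-181a-5p: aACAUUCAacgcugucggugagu
mmu-miR-221-3p: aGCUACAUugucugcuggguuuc
mmu-miR-222-3p: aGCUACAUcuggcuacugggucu
The remaining ones each have another seed and are shown because their loci are described one by one.
mmu-miR-147-5p: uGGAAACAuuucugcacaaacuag
mmu-miR-6391: uGAGGCACgggaggacaaugu
mmu-miR-101a-3p: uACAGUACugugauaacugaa
mmu-miR-148a-3p: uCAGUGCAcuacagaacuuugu
mmu-miR-142a-3p: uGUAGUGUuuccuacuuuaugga
mmu-miR-223-3p: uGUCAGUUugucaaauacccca
mmu-miR-155-5p: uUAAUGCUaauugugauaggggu
mmu-miR-511-3p: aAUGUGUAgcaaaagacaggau
mmu-miR-21a-5p: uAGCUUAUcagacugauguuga

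The sequences of 5 of the 12 peaks with the smallest p per gene are given on the plus strand of mm10 (GRCm38). They were picked after their letters were searched: the 2 of smallest p, which hold none of the strings below, and 3 that hold an AP-1 string. Peaks wider than 300 bp are shown by their central 300 bp. Capitals mark the AP-1 strings TGACTCA and TGAGTCA, the PU.1 string GAGGAAGT with its reverse complement ACTTCCTC, and the C/EBP strings TTGCACAA, TTGTGCAA and TTGCGCAA, searched on both strands, none of which overlapped another in these windows. PU.1 and C/EBP are lineage factors of macrophages, and AP-1 is a factor induced by activation. A match describes the letters and is not a measured binding site. In central windows of 300 bp, 8.96% of the 75660 peaks that are wide enough hold an AP-1 string, 8.60% a PU.1 string and 2.05% a C/EBP string.
peak assigned to Mir147, chr2:122656183-122656482: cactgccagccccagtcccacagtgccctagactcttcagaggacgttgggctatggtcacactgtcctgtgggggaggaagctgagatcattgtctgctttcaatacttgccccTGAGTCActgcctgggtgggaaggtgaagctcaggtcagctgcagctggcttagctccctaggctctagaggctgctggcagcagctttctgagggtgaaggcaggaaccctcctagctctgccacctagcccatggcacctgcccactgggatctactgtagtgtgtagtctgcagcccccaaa
peak assigned to Mir3089, chr2:30743268-30743541: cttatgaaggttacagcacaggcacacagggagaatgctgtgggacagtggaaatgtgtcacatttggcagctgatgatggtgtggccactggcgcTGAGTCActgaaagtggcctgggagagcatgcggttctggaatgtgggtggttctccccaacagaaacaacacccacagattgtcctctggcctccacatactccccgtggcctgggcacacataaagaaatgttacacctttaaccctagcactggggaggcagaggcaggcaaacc
peak assigned to Mir6932, chr11:107638229-107638528: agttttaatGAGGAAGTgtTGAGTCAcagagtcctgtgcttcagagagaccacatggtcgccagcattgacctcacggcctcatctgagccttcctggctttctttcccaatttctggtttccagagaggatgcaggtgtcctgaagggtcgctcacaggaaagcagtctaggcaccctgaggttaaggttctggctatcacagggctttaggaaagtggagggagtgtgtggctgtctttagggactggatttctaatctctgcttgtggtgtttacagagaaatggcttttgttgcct
peak assigned to Mir1961, chr5:92767830-92768129: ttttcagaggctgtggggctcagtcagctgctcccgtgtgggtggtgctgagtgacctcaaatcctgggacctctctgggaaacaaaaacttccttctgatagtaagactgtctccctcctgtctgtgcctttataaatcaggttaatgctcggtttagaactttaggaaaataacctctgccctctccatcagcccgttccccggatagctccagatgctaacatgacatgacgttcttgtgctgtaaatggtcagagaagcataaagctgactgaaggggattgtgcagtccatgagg
peak assigned to Mir6391, chr14:118619680-118619979: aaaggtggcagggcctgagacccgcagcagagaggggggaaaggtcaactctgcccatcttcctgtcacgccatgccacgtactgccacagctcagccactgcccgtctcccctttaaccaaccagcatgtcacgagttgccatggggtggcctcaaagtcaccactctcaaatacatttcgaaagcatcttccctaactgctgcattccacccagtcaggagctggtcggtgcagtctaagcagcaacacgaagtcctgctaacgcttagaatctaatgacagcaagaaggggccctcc
The *Mir147* and *Mir3089* windows each held 1 AP-1 string, the *Mir6932* window held 1 AP-1 and 1 PU.1 string, and the *Mir1961* and *Mir6391* windows held no match. Over the windows of all 12 peaks, 4 held an AP-1 string (*Mir3092* is the other one), 1 of these 4 a PU.1 string and 0 a C/EBP string, and 8 held no match.

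Libraries held 20971521 to 56121809 reads in peaks in *Scnn1b*-Tg AMs and 28248016 to 39162909 in WT AMs. WT library 3 and *Scnn1b*-Tg library 4 stood apart from the others. On the first principal component over the member peaks, which held 41.8% of the variance, they scored -14.95 and -14.6, and the other 5 libraries scored 1.24 to 12.6. Counts of members and values of some of the peaks are given with and without them. All 14 markers of AMs (*Siglecf*, *Marco* and *Pparg* among them) had a peak within 1 kb of their start, with a median normalized count of 899. Their summed count was 12493 to 16384 in *Scnn1b*-Tg libraries and 12856 to 15499 in WT libraries. Promoter peaks were found at 3 of 6 markers of lung epithelium, whose sum was 1616 to 1952 in *Scnn1b*-Tg and 1526 to 1864 in WT libraries, with *Scgb1a1* among the 3, and *Sftpc*, *Scgb3a2* and *Muc5b* had no peak. They were also found at 2 of 5 lymphocyte, 4 of 5 neutrophil, 3 of 3 dendritic cell and 3 of 3 monocyte markers and at 0 of 3 eosinophil markers, and *Cd3e*, *Cd79a* and *Ly6g* had none at the promoter. The promoter peaks of *Ms4a1* (mean count 1471) and *S100a8* (1232) exceeded the median of the AM markers. Those of *Pax5*, *S100a9*, *Camp* and *Ngp* had mean counts of 14.6 to 20.7. The sums of every list with such a peak overlapped between the genotypes, and the part of other cells in the results below was not tested.

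Member peaks lay far from the hairpin they were assigned to. Their median distance from the start was 15036 bp, against 8905.5 bp for the 88654 other peaks and their own genes. Within 3 kb lay 343 members (19.9%, against 31.3% of other peaks), and 188 members (10.9%) lay more than 100 kb away, the farthest at 733158 bp. Introns held 641 members (37.2%, against 33.2% of other peaks) and distal intergenic sequence held 565 (32.8%, against 26.7%). The annotation classes name features of any gene, so an intron here is usually an intron of a protein-coding gene: 902 members (52.4%) overlapped the body of one. The median member was 633 bp wide with a normalized count of 95.5, against 670 bp and 121.0 for the other peaks. Normalized counts are reads in the peak scaled by 1 factor per library.

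**Figure D1:**
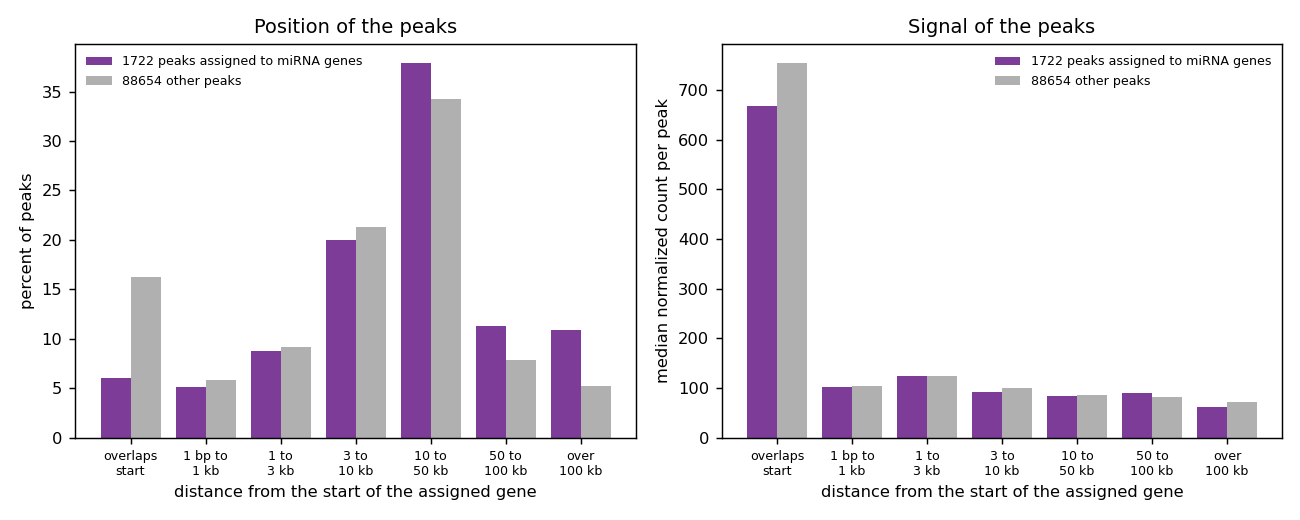
Position and signal of 1722 peaks assigned to miRNA genes (purple) and of 88654 other peaks (grey), by distance from the start of the assigned gene. The left panel gives the percent of peaks and the right panel the median normalized count. Members overlapping a start were fewer (6.04% against 16.3%) and members beyond 100 kb more frequent (10.9% against 5.26%), and in both sets the peaks over a start held the highest counts (medians of 668.7 and 755.4).

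Median signal was higher in peaks over a hairpin than in all members. A hairpin sequence was available for 405 of the 481 genes, and 91 members, each of another gene, overlapped it. Their normalized counts ranged between 15.8 and 3998 with a median of 642.5. Of these 91 peaks, 41 also covered the start of a protein-coding transcript, with a median count of 1064, and the other 50 had a median of 282.6. Among the 20 of them with the highest counts, 16 covered such a start. Among these 16 are the peaks over *Mir5130* in *Kctd12*, *Mir8112* in *Krcc1*, *Mir8098* in *Wdfy2*, *Mir7009* in *Anxa5* and *Mir2861* in *Cdk9*. Over all members 50 (2.90%) covered a protein-coding start, against 14.7% of other peaks.

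The 8 miRNA genes with the highest count at 1 peak were *Mir22hg* (6745), *Mir34a* (4153), *Mir5130* (3998), *Mir23a* (3886), *Mir8112* (3544), *Mir142* (3426), *Mir339* (3413) and *Mir6367* (3362), each given by its mean normalized count over 7 libraries. The list takes 1 peak per gene, and its counts are not divided by the width of the peak. In all, 131 members had a mean count above 1000. *Mir22hg* is the host transcript of miR-22, and the peak over its start (chr11:75460064-75462151) had normalized counts of 7383, 6595, 6900.1 and 6325 in *Scnn1b*-Tg AMs, against 6729, 6356 and 6929.9 in WT AMs. The *Mir34a* peak, 6.84 kb before a miRNA known as a p53 target, had 3921, 3969.9, 4188 and 4717 in *Scnn1b*-Tg AMs, against 3989, 3746 and 4537 in WT AMs. The *Mir23a* peak, 3.86 kb before the cluster of miR-23a, miR-27a and miR-24, had 3262, 3711, 4194 and 4507 in *Scnn1b*-Tg AMs, against 3247, 3477 and 4805 in WT AMs. In each of these 3 peaks the libraries of the genotypes overlapped. Over the 8 peaks the log2 fold changes lay between -0.05 and 0.04.

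Differences between *Scnn1b*-Tg and WT AMs were small at nearly all members. The median log2 fold change over members was -0.0025, against -0.0081 over all peaks, and 849 members (49.3%, against 47.8% of all peaks) lay higher in *Scnn1b*-Tg AMs. The 5th and 95th percentiles of the members were -0.41 and 0.47 on the log2 scale. The log2 fold change exceeded 1 at 6 of the 1722 members, and 0.521% of all peaks exceeded it. It lay under -1 at 3 members, for which the share over all peaks was not computed. Fold changes are *Scnn1b*-Tg over WT on the scale of log2(normalized count + 1), which understates the change of low peaks. 

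No member passed Benjamini-Hochberg adjustment in limma over all 90376 peaks (0 of 1722, smallest adjusted p 0.999994), and 1 peak of the whole table did (0.00111%). The recovered whole reads gave 0 members past the threshold in edgeR's quasi-likelihood test, 0 in its exact test (smallest adjusted p of a member 0.258) and 0 in DESeq2 (smallest 0.204), while the exact test and DESeq2 called 52 and 47 peaks of the whole table. These tools gave 43, 47 and 41 members at an unadjusted p under 0.05. In each, 1.742% of members lay higher, against 1.453%, 1.559% and 1.415% of all peaks. Lower lay 0.7549%, 0.9872% and 0.6388% of members, against 0.5035%, 0.551% and 0.4647% of all peaks. At an unadjusted limma p under 0.05 there were 45 members of 35 genes. Of these, 33 lay higher in *Scnn1b*-Tg AMs, 1.92% of members against 1.49% of all peaks, and 12 lay lower, 0.697% of members against 0.517% of all peaks. These counts depended on single libraries. The higher members numbered 20 without *Scnn1b*-Tg library 3, and the lower ones 7 without *Scnn1b*-Tg library 3, 19 without *Scnn1b*-Tg library 4 and 25 without WT library 3. In 36 members (2.09%) every *Scnn1b*-Tg library exceeded every WT library, against 1.92% of all peaks, and in 30 members (1.74%) every *Scnn1b*-Tg library lay under every WT library, against 1.31% of all peaks. The members' shares lay near these background shares. Fewer of all peaks had a limma p under 0.05 than evenly spread p-values would give, so the fit was conservative. Genotype was its only term, and the spread along the first principal component, which libraries of both genotypes share, stayed in the residual. The lack of adjusted calls thus does not show that the genotypes are equal. Without WT library 3 and *Scnn1b*-Tg library 4, the unadjusted p was under 0.05 at 58 members (38 higher, 2.21% against 2.02% of all peaks, and 20 lower, 1.16% against 0.951%). The sign was kept at 45 of the 45 members, and 29 of them stayed under 0.05. The 45 were picked for a small p in a fit that held these same libraries, so this is no separate support.

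**Figure D2:**
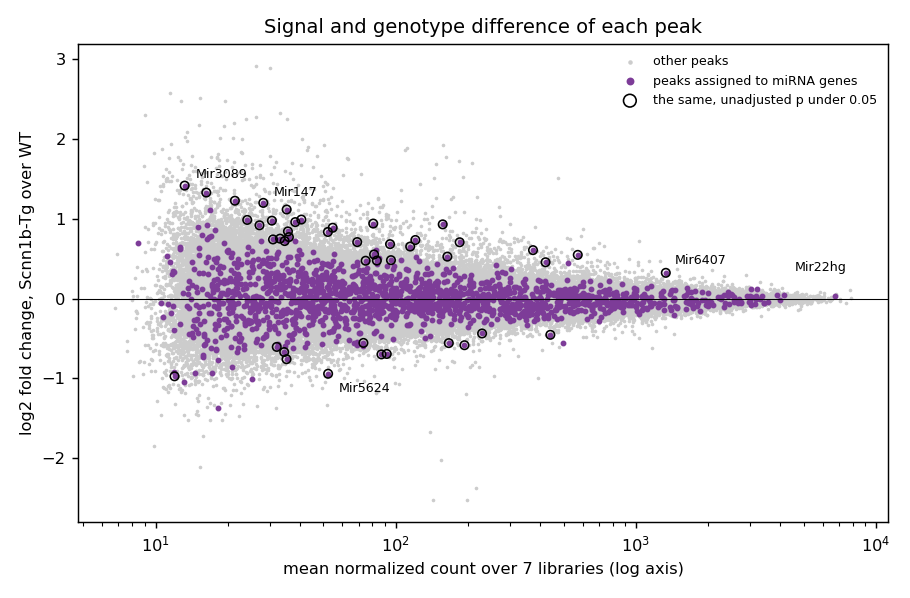
Log2 fold change of *Scnn1b*-Tg over WT against the mean normalized count (log axis), 1 point per peak, with members in purple, other peaks in grey and black rings around the 45 members with an unadjusted limma p under 0.05. The rings lie mostly at low counts, with a median of 69.1, and the members of highest count, such as *Mir22hg* at 6745, lie near 0.

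The 45 members with an unadjusted p under 0.05 had a median normalized count of 69.1 (range 12.0 to 1333), against 95.5 over all members, and all peaks at this p had a median of 56.0. The strongest was at *Mir6407*, 1.43 kb from the start, with 1268, 1470.5, 1544 and 1557 in *Scnn1b*-Tg AMs, against 1185, 1105 and 1204 in WT AMs (log2 fold change 0.32 ± 0.13 (SE)). Of the 45, 8 lay within 3 kb of the start (17.8%, against 19.9% of members), 2 covered the hairpin and 11 lay beyond 100 kb (24.4%, against 10.9% of members). None of the 45 covered the start of a protein-coding transcript, which 2.90% of all members did. In the body of a protein-coding gene lay 27 of the 45, as did 52.4% of all members. The shares of these positions among all peaks at this p were not computed. The 33 that lay higher had log2 fold changes of 0.32 to 1.42, and the 12 that lay lower had -0.98 to -0.44. Groups did not overlap at 28 of the 45, which were picked for a small p from the same libraries, so this is no separate support. The share without overlap among all peaks at this p was not computed. No p below is adjusted unless it is said to be, and the limma adjusted p of each was 0.999994.

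The member with the smallest p was a peak in an intron of *Abcc4*, a transporter of cyclic nucleotides and lipid mediators, assigned to *Mir6391* (chr14:118619428-118620231). Its normalized counts were 106, 102, 104 and 92.7 in *Scnn1b*-Tg AMs, against 60.4, 60.5 and 38.8 in WT AMs (log2 fold change 0.94 ± 0.22 (SE)). The second lay in an intron of *Shroom3*, a regulator of actin and cell shape, and was assigned to *Mir1961* (chr5:92767355-92768605). It had 186, 249, 226 and 225 in *Scnn1b*-Tg AMs, against 125, 136 and 144 in WT AMs (log2 fold change 0.71 ± 0.18 (SE)). At both, every *Scnn1b*-Tg library exceeded every WT library. The 16 alternative settings gave log2 fold changes of 0.73 to 1.05 for the first and 0.65 to 0.79 for the second.

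The next 2 by p lay at *Mir6376* and *Mir7057*. The *Mir6376* peak, 12.4 kb from the start in intergenic sequence, had 35.3, 54.4, 50.6 and 54.0 in *Scnn1b*-Tg AMs, against 23.8, 27.3 and 21.7 in WT AMs (log2 fold change 0.96 ± 0.27 (SE)). The *Mir7057* peak lay in an intron of its host *Lrrk1*, a kinase gene, with 125, 234, 198 and 233 in *Scnn1b*-Tg AMs, against 115, 72.3 and 121 in WT AMs (log2 fold change 0.93 ± 0.27 (SE)). Both sets of *Scnn1b*-Tg libraries lay above the WT libraries without overlap, and the lowest in each was *Scnn1b*-Tg library 1. Nearest to a hairpin among the 12 genes of smallest p was the peak 0.389 kb after the start of *Mir6932* in *Helz*, an RNA helicase gene. It had 68.2, 69.8, 60.1 and 57.7 in *Scnn1b*-Tg AMs, against 41.7, 43.9 and 24.0 in WT AMs (log2 fold change 0.83 ± 0.27 (SE)). A further peak over the *Mir6932* hairpin itself had 84.0, 60.7, 114 and 72.5 in *Scnn1b*-Tg AMs, against 35.7, 46.2 and 70.8 in WT AMs (log2 fold change 0.71 ± 0.29 (SE)), with WT library 3 above *Scnn1b*-Tg library 2. WT library 3 was the lowest library at the peak 0.389 kb away, where the log2 fold change without that library was 0.57.

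Lower values in *Scnn1b*-Tg AMs were found at 2 of the 12 genes. The *Mir5624* peak, in an intron of *Arsb* (arylsulfatase B, a lysosomal enzyme) 133 kb from the hairpin, had 46.3, 29.9, 25.3 and 49.7 in *Scnn1b*-Tg AMs, against 82.5, 58.1 and 74.2 in WT AMs (log2 fold change -0.94 ± 0.29 (SE)). The *Mir551b* peak, 138 kb from the hairpin in *Egfem1*, had 63.3, 73.4, 85.4 and 52.8 in *Scnn1b*-Tg AMs, against 90.1, 117 and 128 in WT AMs (log2 fold change -0.70 ± 0.23 (SE)). The libraries did not overlap at either. Without both libraries that stood apart the *Mir551b* value was -0.48, and the *Mir5624* value was -1.06. In that fit the unadjusted p exceeded 0.05 at the listed peaks of *Mir551b*, *Mir6932* (0.389 kb) and *Mir147* (15.3 kb), and at those of *Mir221*, *Mir181b-1* and *Mir101a* described further on.

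The other genes of smallest p were *Mir147*, *Mir6387*, *Mir3089*, *Mir3092* and *Mir3108*. The largest fold among them was at the *Mir3089* peak, with normalized counts of 11.0, 15.4, 30.0 and 17.8 in *Scnn1b*-Tg AMs, against 4.25, 8.30 and 5.71 in WT AMs (log2 fold change 1.42 ± 0.48 (SE)). These counts were the lowest of the 12, and the fitted value was 1.04 with a pseudocount of 5. The *Mir3092* peak in *Fndc3b* had 47.5, 44.4, 55.4 and 30.1 in *Scnn1b*-Tg AMs, against 20.4, 27.3 and 24.0 in WT AMs (log2 fold change 0.84 ± 0.29 (SE)). The *Mir3108* peak in *Zfhx3*, a transcription factor gene, had 96.2, 127, 161 and 165 in *Scnn1b*-Tg AMs, against 86.7, 80.6 and 87.9 in WT AMs (log2 fold change 0.65 ± 0.22 (SE)). The genotypes did not overlap at these 3 peaks.

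**Figure D3:**
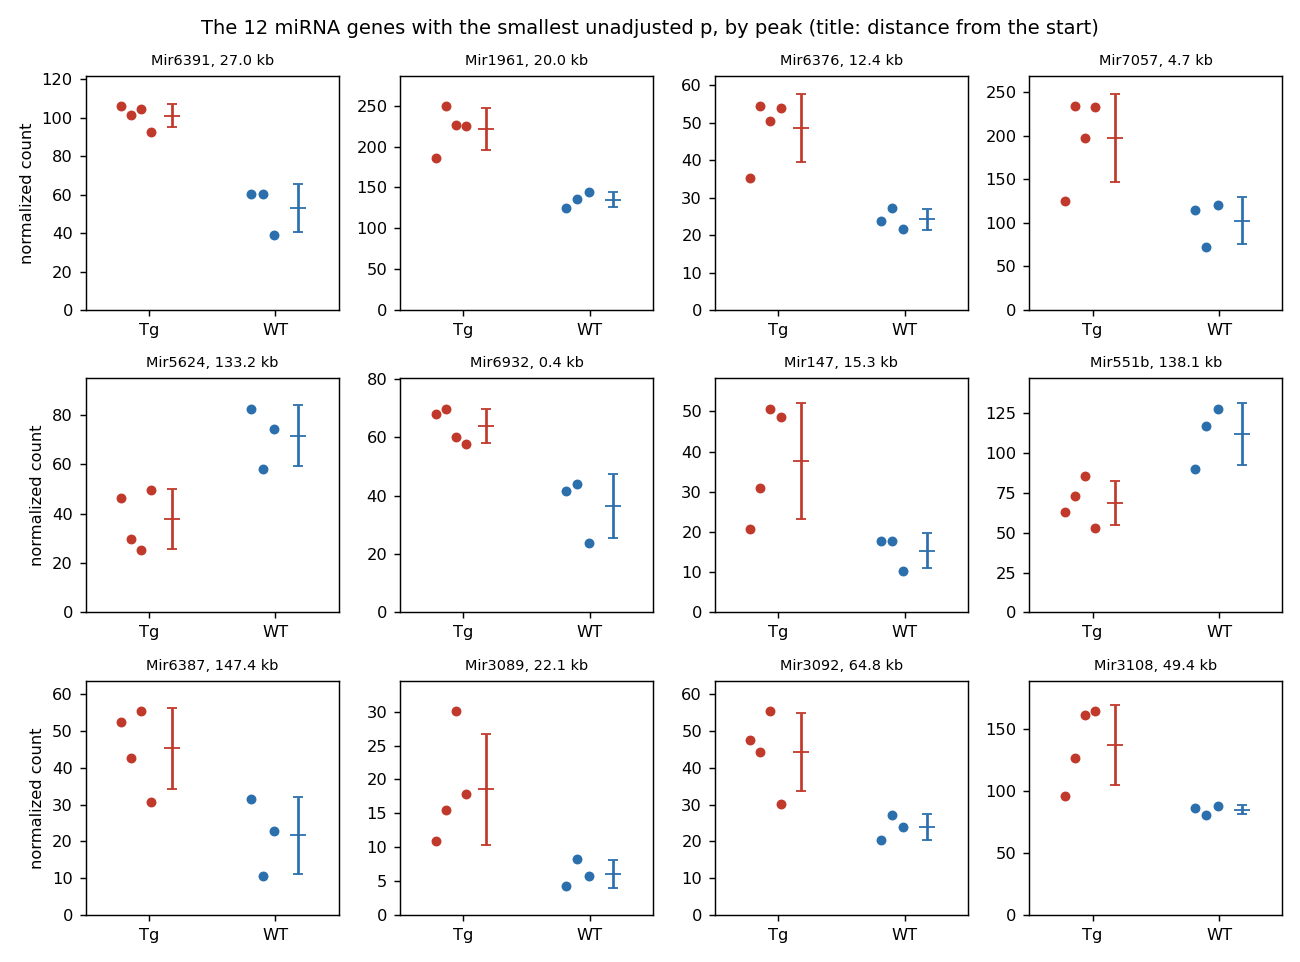
Normalized count per library at 1 peak of each of the 12 miRNA genes with the smallest unadjusted limma p, *Scnn1b*-Tg (red, 4 libraries) and WT (blue, 3 libraries), with mean ± SD beside the points and the distance from the start in each title. *Scnn1b*-Tg libraries lie higher at 10 genes and lower at *Mir5624* and *Mir551b*, and the groups overlap only at *Mir6387*.

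Of the 205 genes with at least 3 peaks, 18 had all their log2 fold changes above 0 and 22 had all below 0, and with at least 5 peaks these were 3 and 5 of 111 genes. The same counts were not made over other genes, so these have no background to be read against. *Mir6897* in *Uggt1* had 11 peaks, all below 0 (-0.47 to -0.04), and none of them had an unadjusted p under 0.05. *Mir6239* had 10 peaks, all below 0 (-0.76 to -0.08), and the one of smallest p, 239 kb from the start, had 35.3, 19.04, 31.6 and 22.7 in *Scnn1b*-Tg AMs, against 42.5, 52.2 and 42.2 in WT AMs (log2 fold change -0.76 ± 0.30 (SE)). The 4 loci plotted by distance lay above 0 at all or nearly all peaks. *Mir147* had 3 peaks, all downstream of the hairpin and outside its host *AA467197*. The weakest, 15.3 kb from the start (chr2:122656135-122656530), had 20.7, 30.8, 50.6 and 48.5 in *Scnn1b*-Tg AMs, against 17.9, 17.8 and 10.3 in WT AMs (log2 fold change 1.20 ± 0.39 (SE)), without overlap. The strongest, 24.7 kb away, had 414, 374, 604 and 519 in *Scnn1b*-Tg AMs, against 323, 309.5 and 401 in WT AMs (log2 fold change 0.45 ± 0.20 (SE)), and *Scnn1b*-Tg library 2 lay below WT library 3. The nearest, 10.9 kb away, had 213, 263, 375 and 332 in *Scnn1b*-Tg AMs, against 174, 232 and 249 in WT AMs (log2 fold change 0.42 ± 0.22 (SE)), an unadjusted p above 0.05, and its groups overlapped. Without both libraries that stood apart the 3 values were 0.81, 0.52 and 0.45 on the log2 scale.

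*Mir1961*, which shares the let-7 seed, had 4 peaks, all in intron 1 of *Shroom3*, with log2 fold changes of 0.28 to 1.23, all above 0. Besides the peak given above, the one 26.1 kb from the start had 18.3, 34.5, 33.2 and 25.8 in *Scnn1b*-Tg AMs, against 19.6, 4.74 and 13.7 in WT AMs (log2 fold change 1.23 ± 0.47 (SE)), and *Scnn1b*-Tg library 1 lay under WT library 1. *Mir6391* had 5 peaks in *Abcc4*, with values of 0.06 to 0.94, all above 0. The one 14.2 kb after the start had 34.1, 39.9, 47.4 and 45.4 in *Scnn1b*-Tg AMs, against 25.5, 27.3 and 21.7 in WT AMs (log2 fold change 0.72 ± 0.26 (SE)). Of the 9 peaks of *Mir6387*, which span 185 kb and begin 80.4 kb from the hairpin, 8 had values above 0. Its strongest had 674, 613, 843 and 524 in *Scnn1b*-Tg AMs, against 540.0, 447 and 370.0 in WT AMs (log2 fold change 0.55 ± 0.19 (SE)), and the peak of smaller p beside it, 147 kb from the start, had 52.3, 42.6, 55.4 and 30.7 in *Scnn1b*-Tg AMs, against 31.5, 10.7 and 22.8 in WT AMs (log2 fold change 1.12 ± 0.38 (SE)). At both, *Scnn1b*-Tg library 4 lay under WT library 1. Without WT library 2 the value at the second was 0.70. Neighbouring peaks share their locus and are not independent, and all 6 of these genes were chosen after their values were seen. In all, 10 of 289 miRNA genes with at least 2 peaks (3.46%) had at least 2 with an unadjusted p under 0.05, against 1.93% of 12989 other genes. At 9 of the 10 both lay higher. At *Mir3089* they lay on opposite sides: the peak 13.6 kb before the start had 43.8, 72.5, 72.7 and 56.5 in *Scnn1b*-Tg AMs, against 97.8, 91.3 and 78.8 in WT AMs (log2 fold change -0.56 ± 0.24 (SE)).

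**Figure D4:**
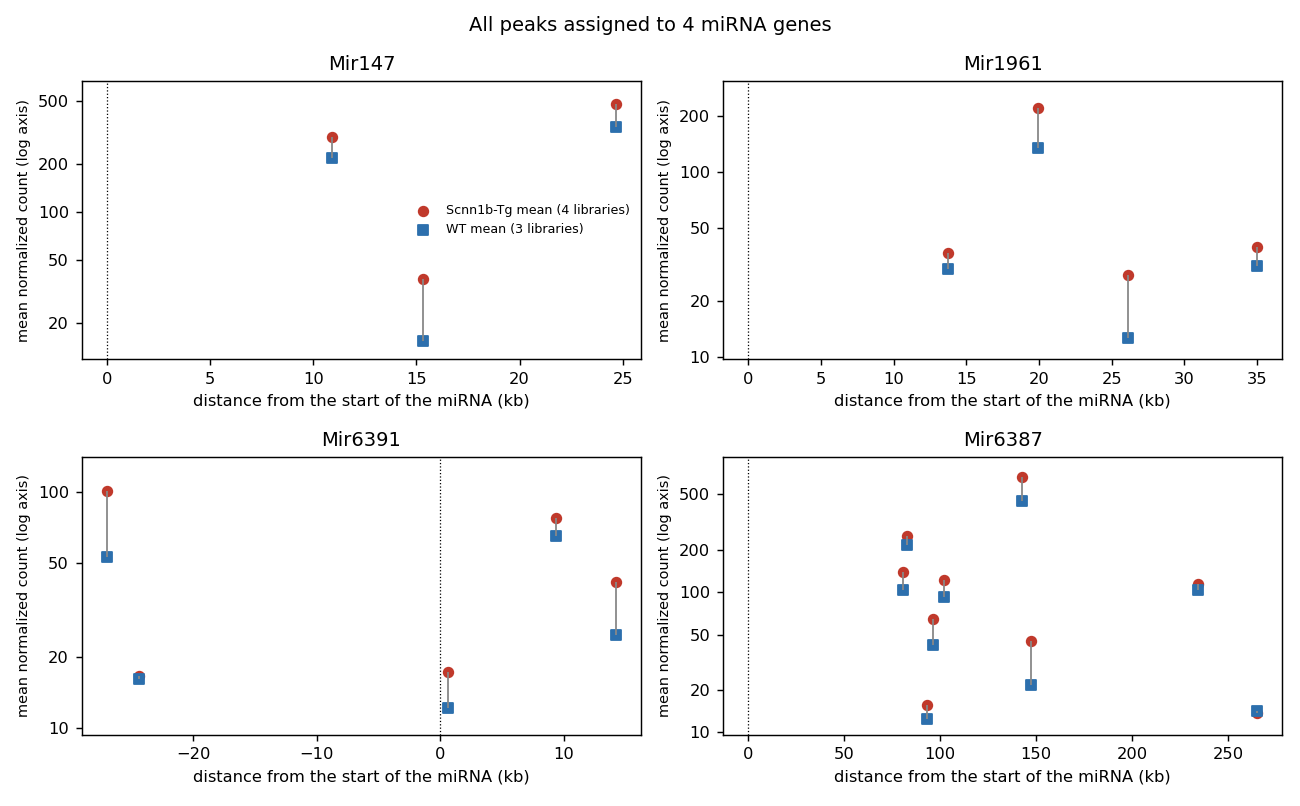
Mean normalized count (log axis) of every peak assigned to *Mir147*, *Mir1961*, *Mir6391* and *Mir6387*, against the signed distance from the start of the miRNA in kb, for *Scnn1b*-Tg (red circles, 4 libraries) and WT (blue squares, 3 libraries), with a grey line joining the means of a peak. The red mean is the higher at all peaks but the farthest of *Mir6387*.

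miRNAs of toll-like receptor signalling and inflammation had 69 peaks at 17 genes. None of the 69 passed the adjusted test, 3 had an unadjusted p under 0.05 and all 3 lay higher (1.49% of all peaks did so and 0.517% lay lower). Of the 3, 2 are the neighbouring peaks of *Mir147* given above, and 1 belongs to *Mir221*. The median log2 fold change was 0.04, against -0.0081 over all peaks, and 40 of the 69 lay above 0. The *Mir221* peak was its only one and lay 264 kb from the hairpin, with 40.2, 40.8, 41.1 and 30.7 in *Scnn1b*-Tg AMs, against 25.5, 24.9 and 10.3 in WT AMs (log2 fold change 0.98 ± 0.35 (SE)), without overlap. The log2 fold change there was 0.57 without WT library 3, the lowest WT library.

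The host of miR-155, a miRNA induced by toll-like receptor ligands and a repressor of *Socs1*, had a weak peak over its start. *Mir155hg* had 64.5, 78.9, 117 and 120.4 in *Scnn1b*-Tg AMs, against 51.0, 75.9 and 159.9 in WT AMs there (log2 fold change 0.11 ± 0.36 (SE)). The highest value was that of WT library 3 and the next that of *Scnn1b*-Tg library 4, the libraries that stood apart. In all, *Mir155hg* had 4 peaks, with mean counts of 34.9 to 531.7. miR-146a and miR-146b repress *Irak1* and *Traf6* in the same pathway. *Mir146* had 7 peaks, with mean counts of 47.1 to 1106.5. The nearest, 5.01 kb after the start, had 218, 189, 258 and 226 in *Scnn1b*-Tg AMs, against 193, 173 and 218 in WT AMs (log2 fold change 0.19 ± 0.18 (SE)). The *Mir146b* peak 0.581 kb before the start had 316, 254, 138 and 213 in *Scnn1b*-Tg AMs, against 292, 301 and 238 in WT AMs (log2 fold change -0.32 ± 0.26 (SE)). Both overlapped between genotypes.

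*Mir21a*, one of the most abundant miRNAs of macrophages, had 6 peaks within 13.4 kb, 5 of them with a value below 0 (-0.24 to 0.02). The nearest had 509, 395, 323 and 370.3 in *Scnn1b*-Tg AMs, against 524, 469.6 and 412 in WT AMs (log2 fold change -0.24 ± 0.18 (SE)). The peak over *Mir132*, a miRNA induced by CREB, had 245, 357, 346 and 633 in *Scnn1b*-Tg AMs, against 234, 320.2 and 568 in WT AMs (log2 fold change 0.09 ± 0.33 (SE)). In both genotypes its highest library was the one that stood apart. *Mir210*, the miRNA of the hypoxia response, had a peak just before its start with 1239, 1596, 1422 and 1495 in *Scnn1b*-Tg AMs, against 1268, 1389 and 1688 in WT AMs (log2 fold change -0.01 ± 0.14 (SE)). *Mir29b-1* had 218, 238, 321 and 371 in *Scnn1b*-Tg AMs, against 183, 197 and 344 in WT AMs (log2 fold change 0.28 ± 0.26 (SE)) at a peak 1.85 kb before its start. The groups overlapped at each of these 4 peaks.

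The myeloid lineage list had 54 peaks at 13 genes, 26 of the 54 above 0 and a median of -0.0089 on the log2 scale. *Mir142*, transcribed throughout the haematopoietic lineages, had 4 peaks within 6.4 kb, and the one before its start had 2485, 2501, 1950.0 and 2033 in *Scnn1b*-Tg AMs, against 2783, 2559 and 1957 in WT AMs (log2 fold change -0.11 ± 0.15 (SE)). *Mir223*, a miRNA of granulocytes and monocytes, had its nearest peak 7.15 kb away inside the neighbouring gene *Vsig4*, with 76.7, 53.5, 42.7 and 51.0 in *Scnn1b*-Tg AMs, against 51.9, 78.3 and 42.2 in WT AMs (log2 fold change -0.02 ± 0.29 (SE)). No peak of *Mir223* lay within 3 kb, and its strongest had a mean count of 239. The 5 peaks of *Mir23a*, whose cluster is a target of PU.1, had mean counts of 612 to 3886 and log2 fold changes of -0.07 to 0.08. Its nearest had 550.2, 653, 620.0 and 572 in *Scnn1b*-Tg AMs, against 609, 575 and 706 in WT AMs (log2 fold change -0.07 ± 0.15 (SE)). *Mir24-2* of the same cluster had 226, 384, 397 and 422 in *Scnn1b*-Tg AMs, against 358, 366 and 532 in WT AMs (log2 fold change -0.24 ± 0.24 (SE)).

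At an unadjusted p under 0.05, 1.49% of all peaks lay higher and 0.517% lower, and these shares also stand beside the lists below. Counts as small as those of these lists are not read as results about them. Of the 54 myeloid peaks 1 had such a p, the only peak of *Mir181b-1*, 32.7 kb after the start. It had 35.3, 21.8, 39.5 and 26.4 in *Scnn1b*-Tg AMs, against 12.8, 21.3 and 11.4 in WT AMs (log2 fold change 0.99 ± 0.36 (SE)), with *Scnn1b*-Tg libraries above WT libraries and no overlap. miR-181b has the seed of miR-181a, and the nearest peak of *Mir181a-1*, 43.4 kb before the same cluster, had 1139, 878, 995 and 679.8 in *Scnn1b*-Tg AMs, against 983, 866 and 606 in WT AMs (log2 fold change 0.18 ± 0.21 (SE)). The 5 genes with the seed ACAUUCA had 25 peaks, 12 of them above 0 and 1 with an unadjusted p under 0.05.

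The alternative activation list had 52 peaks at 11 genes, none with an unadjusted p under 0.05, a median of -0.018 and 23 of 52 above 0. Over all peaks 1.49% lay higher at this p and 0.517% lower. *Mir511* lies in an intron of *Mrc1*, the mannose receptor gene of AMs, and had 11 peaks. The nearest had 472, 421, 455 and 300.3 in *Scnn1b*-Tg AMs, against 434, 484 and 409.9 in WT AMs (log2 fold change -0.12 ± 0.19 (SE)). The *Mir26b* peak in *Ctdsp1* had 2265, 2661, 2396 and 2739.5 in *Scnn1b*-Tg AMs, against 2342, 2615 and 2856 in WT AMs (log2 fold change -0.05 ± 0.12 (SE)), and that of *Mir26a-1* in *Ctdspl* had 521, 490.5, 457 and 363 in *Scnn1b*-Tg AMs, against 502, 491 and 332 in WT AMs (log2 fold change 0.06 ± 0.20 (SE)). *Mir193a* had 1021, 1192, 1039 and 1415 in *Scnn1b*-Tg AMs, against 943, 1131 and 1623 in WT AMs (log2 fold change -0.05 ± 0.19 (SE)) and *Mir124a-3* had 168, 208, 319 and 401 in *Scnn1b*-Tg AMs, against 184, 239.5 and 409 in WT AMs (log2 fold change -0.02 ± 0.33 (SE)). The libraries overlapped at each, and at *Mir193a* and *Mir124a-3* the highest library was the one that stood apart in each genotype.

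**Figure D5:**
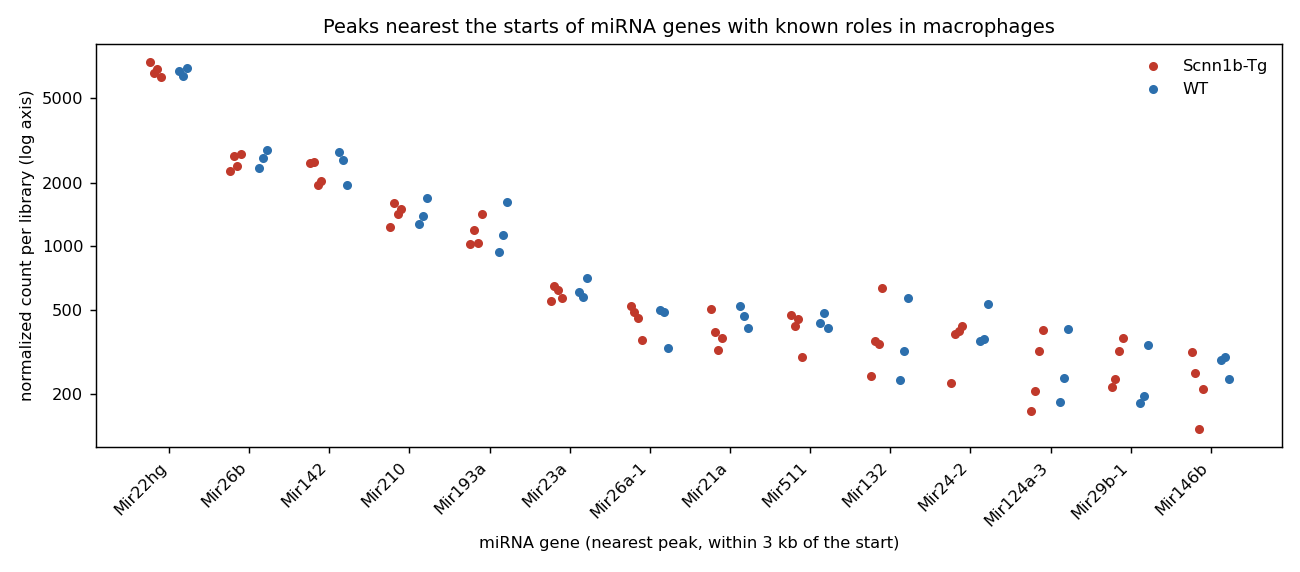
Normalized count per library (log axis) at the peak nearest the start for 14 miRNA genes with known roles in macrophages, *Scnn1b*-Tg in red and WT in blue, ordered by mean count. The highest is *Mir22hg* at 6745 and the lowest *Mir146b* at 250.2, and the genotypes overlap at every gene.

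Over the 3 lists, 22 of 41 genes had their nearest peak within 3 kb. None of these 22 had an unadjusted p under 0.05 (smallest 0.211), where 1.49% of all peaks lay higher and 0.517% lower. Their log2 fold changes lay between -0.38 (*Mir9-3*) and 0.29 (*Mir125b-2*). The 8 of them not given above (*Mir193b*, *Mir124a-1hg*, *Mir342*, *Mir9-2*, *Mir155hg*, *Mir378a*, *Mir125b-2* and *Mir9-3*, of which *Mir155hg* was given for its role) had mean counts of 38.6 to 225. The 19 genes whose nearest peak lay farther, 3.50 to 264 kb away, had mean counts of 17.8 to 1057 and log2 fold changes of -0.64 (*Mir128-2*) to 0.99 (*Mir181b-1*).

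let-7 miRNAs, which mark differentiated cells and repress growth genes, had 18 peaks at 4 genes named *Mirlet7*. Of these 18, 0 had an unadjusted p under 0.05 (against 1.49% of all peaks higher and 0.517% lower). Above 0 lay 8 of the 18, with a median of -0.022. *Mir7k*, the gene of let-7k, also has the let-7 seed and is not counted among them. *Mirlet7i* had 8 peaks, of which the one over the hairpin had 767, 869, 821 and 1198 in *Scnn1b*-Tg AMs, against 684, 734 and 1271 in WT AMs (log2 fold change 0.06 ± 0.23 (SE)). The strongest let-7 peak lay 7.31 kb before *Mirlet7a-1*, with 2550.2, 2818, 3222 and 4396 in *Scnn1b*-Tg AMs, against 2546, 2682 and 4725 in WT AMs (log2 fold change -0.00 ± 0.23 (SE)), and its highest library was the one that stood apart in both genotypes. The 2 let-7 seed peaks with an unadjusted p under 0.05 were both those of *Mir1961*. The growth-promoting 17-92 cluster and its paralogues had 5 peaks at 3 genes. The peak 0.641 kb before *Mir17* had 495, 512, 568 and 658 in *Scnn1b*-Tg AMs, against 529, 467 and 668 in WT AMs (log2 fold change 0.02 ± 0.17 (SE)).

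miRNAs of airway epithelium had 14 peaks at 9 genes, 5 of them over the hairpin, with a median log2 fold change of -0.0003, 7 of 14 above 0 and none with an unadjusted p under 0.05. The strongest was at *Mir449c*, a miRNA of ciliated cells, with 385, 372, 446 and 367 in *Scnn1b*-Tg AMs, against 380.1, 465 and 387 in WT AMs (log2 fold change -0.06 ± 0.16 (SE)). The peak over *Mir182* had 79.1, 89.8, 145 and 74.3 in *Scnn1b*-Tg AMs, against 39.1, 79.5 and 73.1 in WT AMs (log2 fold change 0.61 ± 0.31 (SE)). Other lineages, with *Mir122* of hepatocytes and *Mir150* of lymphocytes among them, had 22 peaks at 10 genes and 0 with an unadjusted p under 0.05, with a median of 0.03.

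miRNAs of lipid and cholesterol handling had 35 peaks at 8 genes, with a median of 0.02. At an unadjusted p under 0.05, 1 lay higher and 1 lower (against 1.49% and 0.517% of all peaks). The higher one was at *Mir101a*, 39.4 kb after the start, with 24.3, 27.2, 7.91 and 31.3 in *Scnn1b*-Tg AMs, against 6.80, 5.93 and 10.3 in WT AMs (log2 fold change 1.33 ± 0.51 (SE)), where *Scnn1b*-Tg library 3 lay within the WT range. The lower one was at *Mir148a*, a repressor of the LDL receptor, 209 kb away, with 133, 98.8, 180.3 and 141 in *Scnn1b*-Tg AMs, against 259, 158 and 195 in WT AMs (log2 fold change -0.56 ± 0.24 (SE)), where *Scnn1b*-Tg library 3 lay above WT library 2. The hypoxia and fibrosis list had 45 peaks at 10 genes and a median of -0.017. The families of the *Sfmbt2* cluster, by their names *Mir466*, *Mir467* and *Mir669*, had 23 peaks at 6 genes, 9 above 0, with a median of -0.10. These last 2 lists had 0 peaks with an unadjusted p under 0.05.

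Members were spread unevenly over the genes: 192 genes had 1 peak, 37 had 10 or more, and the median was 2. Those with most peaks were *Mir5130*, *Mir5623* and *Mir7219* (30 each), *Mir496b* (24) and *Mir3092* (22), none of them a miRNA of the lists. Peaks of *Mir5130* spanned 473 kb with mean counts of 12.6 to 3998, and 12 of 30 lay above 0. *Mir5623* had 2 peaks with an unadjusted p under 0.05 and log2 fold changes of -0.44 to 0.99 over 320 kb. *Mir7219* had values of -0.93 to 0.54 and *Mir496b* of -0.30 to 0.53. *Mir3092* had values of -0.10 to 0.84, with 15 of 22 above 0. Each of these 5 genes had peaks on both sides of 0.

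The strings of AP-1, PU.1 and C/EBP were counted in all members. In the central 200 bp, 124 of 1662 members wide enough held an AP-1 string (7.46%, against 6.55% of other peaks), 125 a PU.1 string (7.52%, against 6.50%) and 32 a C/EBP string (1.93%, against 1.52%). Of the 33 members that lay higher at an unadjusted p under 0.05, 6 held an AP-1 string (18.2%), and over the whole peak set 12.5% of 1312 such peaks did. The *Mir147* and *Mir3089* peaks printed above are among the 6. A PU.1 string was held by 4 of the 33 (12.1%, against 6.02% of such peaks) and a C/EBP string by 0 of the 33 (against 2.21%). The median GC content was 47.9% in members and 48.2% in other peaks.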

How the data were processed

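ATAC-seq libraries of sorted AMs (50000 cells each, Omni-ATAC) were processed by the authors with the ENCODE pipeline (v0.3.0) against mm10. Per the study's methods, DiffBind formed a consensus of peaks found in at least 2 samples, and ChIPseeker (v1.22.1) annotated differentially accessible regions. The deposited table gives every peak a gene and the distance to its start, by a rule not given in the sources used here. DiffBind, edgeR, DESeq2 and ChIPseeker were also named in the submitters' processing notes. The deposited values are a signal, read counts per peak scaled by the authors with 1 factor per library. Whole reads were recovered for 100% of values (tolerance 1e-06 reads). Columns of the authors' own comparison (log2 means, fold changes, p-values) were not used.

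Log2(signal + 1) was tested in limma 3.58.1 (R 4.3.3; trended, robust variances, genotype the only term) over all 90376 peaks without a filter, with Benjamini-Hochberg adjustment. The alternatives were pseudocounts of 0.5 and 5, a filter at a mean signal of 20, scaling by quantiles or by the median, DESeq2 1.42.0, edgeR 4.0.16 with its exact and quasi-likelihood tests, each library left out, members within 3 kb, members without hg genes and, chosen after seeing the data, a fit without both libraries that stood apart. The script was tested on simulated data. Library numbers are those of the columns, which no label ties to a sample, so the batches in the labels (1, 2 and 4 in both genotypes, 3 in *Scnn1b*-Tg only) could not be fitted. The study describes its replicates as biological, and the labels do not name the animals.

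Named genes were the 12 with the smallest p and the 8 with the highest count at 1 peak, the peak nearest the start for the inflammation, myeloid and alternative activation lists (values for the 14 of highest count within 3 kb), the 5 genes with most peaks, and members of other lists with an unadjusted p under 0.05. Peaks added for let-7, 17-92, epithelial and multi-peak loci were chosen after their values were seen. Members and lists were chosen with earlier results of these data known. Transcript coordinates of the members were identical in GENCODE M21 for 492 of 492. Sequences came from RefSeq GRCm38.p6.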

Additional observations from a re-analysis of the deposited data

Results flagged for a closer look

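In 63 named peaks the 4 *Scnn1b*-Tg libraries were examined for a single library far from the others, and 2 were found, where chance gives about 1 in 20. At the *Mir221* peak *Scnn1b*-Tg library 4 had a normalized count of 30.7, and the other 3 had 40.2 to 41.1. WT libraries had 10.3 to 25.5 at that peak. At the *Mir187* peak 7.11 kb before the start, *Scnn1b*-Tg library 3 had a count of 60.1, and the other 3 had 21.9 to 25.8. WT libraries had 22.5 to 57.1 there. Groups of 3 WT libraries were not examined in this way.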

How the results depend on the processing

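The count of members past the adjusted threshold stayed at 0 under all 16 alternative fits. The median log2 fold change over members was -0.013 to 0.012 when single libraries were left out, and -0.019 over the 343 members within 3 kb. Among members within 3 kb, 8 had an unadjusted p under 0.05. Of these, 6 lay higher (1.75%, against 1.49% of all peaks) and 2 lower (0.583%, against 0.517%). When single libraries were left out, 27 to 67 members had such a p (20 to 42 higher and 7 to 25 lower). The lowest total, 27 (1.16% higher and 0.407% lower, against 0.922% and 0.423% of all peaks), came without *Scnn1b*-Tg library 3. The highest, 67, came without WT library 3, with 42 higher (2.44%, against 2.25% of all peaks) and 25 lower (1.45%, against 1.11%). Without *Scnn1b*-Tg library 4 there were 19 lower members, and without both libraries that stood apart 20. Of 90 values of these counts and of the median under the alternatives, the other 80 moved by at most 1.5 times, or for the median by less than the spread between libraries. All 1005 values of the 63 named peaks under the alternatives kept their direction and their side of the adjusted threshold (peaks with an unadjusted p under 0.05) or moved by less than the spread between libraries (the others). The first kind were picked for a small p in the same libraries, at a limma adjusted p of 0.999994, so this outcome was nearly fixed. Without WT library 3 the log2 fold change still moved from 0.83 to 0.57 at *Mir6932* (0.389 kb) and from 0.98 to 0.57 at *Mir221*. No paired analysis was possible because the columns carry numbers that no label ties to the sample numbers shared by the genotypes. A mean normalized count under 20 was found at 133 members, where counting error is largest relative to the value.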
